A study of Mus musculus with 4 samples.

Results

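F13a1, Ly86, Ms4a6c, Ms4a6d and Vcan are genes used to mark cells of the monocyte lineage, and they were followed here across mouse myeloid-derived suppressor cell (MDSC) cultures with altered lnc-C/EBPβ. These 5 genes were taken from a total of 18194 genes on the array. They were listed by name, and every probe set annotated to the symbol of a member and to no other gene was used. That gave 15 probe sets among the 34958 annotated to 1 symbol. F13a1 and Ly86 each had 1 probe set, Ms4a6c had 2, Ms4a6d had 3 and Vcan had 8.

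The study asked how the long noncoding RNA lnc-C/EBPβ affects the formation of monocytic and polymorphonuclear MDSCs. Fresh bone marrow cells of C57BL/6 mice received lentivirus and were then kept for 4 days with GM-CSF and IL-6, cytokines under which marrow cells turn into MDSCs. The kdLNC culture carried an shRNA against the RNA, which the labels call lncMDSC, and kdNC carried a control shRNA. The oeLNC culture carried a lentivirus that expresses the RNA, and oeNC carried the control lentivirus for overexpression. Each group was 1 culture on 1 Affymetrix GeneChip mouse array, so no difference below has a replicate error or a p-value. The level of lnc-C/EBPβ itself was not analysed here, and the age of the mice and the number pooled were not given in the sources used here.

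Monocytes form in the marrow from progenitors shared with neutrophils, under transcription factors such as PU.1 and IRF8, and leave it for blood and inflamed tissue. Monocytic MDSCs (Mo-MDSCs) carry much of the same expression program. F13a1 encodes the catalytic A subunit of coagulation factor XIII, a transglutaminase that crosslinks fibrin, and is expressed in monocytes, macrophages and the platelet lineage. Vcan encodes versican, a large chondroitin sulfate proteoglycan that binds hyaluronan and is made by monocytes and by stromal cells. Ms4a6c and Ms4a6d encode membrane proteins of the MS4A family, whose genes lie in a cluster on chromosome 19. Ly86 encodes MD-1, a secreted protein that pairs with the Toll-like receptor relative RP105 (Cd180) on B cells, macrophages and dendritic cells.

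F13a1 and Ly86 lie next to each other on chromosome 13 among the genes with probe sets of their own, and their values ran in opposite directions (below). For that reason their promoters are shown, each from 250 bases before to 50 bases after an annotated start, from RefSeq on GRCm38.p6. The directions in the knockdown and overexpression pairs changed when both controls were averaged, and a link to these sequences was not tested. Capitals mark GAGGAA, the core bound by PU.1-type factors, and TTNNGNAA, a loose C/EBP-type pattern, both searched on either strand. Matches that overlap run together, as they do at the downstream start of F13a1, where TTGAGGAA holds both.
F13a1, upstream start, minus strand, chr13:37050195-37050494: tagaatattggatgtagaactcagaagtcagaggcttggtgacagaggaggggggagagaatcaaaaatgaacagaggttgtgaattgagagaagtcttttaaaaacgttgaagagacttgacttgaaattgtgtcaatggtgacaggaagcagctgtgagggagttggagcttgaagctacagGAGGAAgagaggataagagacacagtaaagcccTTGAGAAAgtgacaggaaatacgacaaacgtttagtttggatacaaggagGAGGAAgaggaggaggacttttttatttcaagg
F13a1, downstream start, minus strand, chr13:37049164-37049463: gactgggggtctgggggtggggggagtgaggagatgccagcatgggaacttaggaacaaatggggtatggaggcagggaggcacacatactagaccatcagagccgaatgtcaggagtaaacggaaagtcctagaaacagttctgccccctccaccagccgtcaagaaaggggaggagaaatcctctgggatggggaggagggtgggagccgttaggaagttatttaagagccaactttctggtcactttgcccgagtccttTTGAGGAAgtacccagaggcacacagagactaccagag
Ly86, plus strand, chr13:37345095-37345394: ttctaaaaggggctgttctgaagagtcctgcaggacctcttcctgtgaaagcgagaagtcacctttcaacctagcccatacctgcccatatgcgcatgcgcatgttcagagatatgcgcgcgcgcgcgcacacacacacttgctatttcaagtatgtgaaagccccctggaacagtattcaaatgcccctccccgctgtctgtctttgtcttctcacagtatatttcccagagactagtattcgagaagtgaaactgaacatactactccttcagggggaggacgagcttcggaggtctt

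The upstream F13a1 promoter held GAGGAA 2 times, with first bases at -66 and 18 from the start, and TTNNGNAA once, at -33. The downstream one held GAGGAA at 15 and TTNNGNAA at 13. The Ly86 promoter held neither pattern. GAGGAA was found in 28.3% of 32851 promoters of the same length and TTNNGNAA in 40.7%, so both are common. An AP-1-type pattern, TGANTCA, was in none of the members' promoters and in 7.81% of all. Of the other genes, Ms4a6c had TTNNGNAA 2 times and no GAGGAA, and Vcan had neither. The patterns were chosen with these sequences in view, and a match is a description of letters and not of a bound factor. Promoters matched for 4 of the 5 genes by gene ID, without Ms4a6d.

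At the brightest probe set of each gene, F13a1, Ms4a6d and Vcan stood above their control on knockdown and below it on overexpression. Ly86 was the reverse, and Ms4a6c was close to level. The other probe set of Ms4a6c had log2 differences of -0.44 on knockdown and 0.45 on overexpression. For Vcan the average over all 8 probe sets was 0.012 and 0.11. The only difference of at least 1.5-fold in a lncRNA pair at the brightest probe set of a gene was that of F13a1 on knockdown. In the rest of the text a gene's value is that of the probe set with the highest mean, and a difference is one of log2 intensities. The deposited intensities are normalized by the authors on a linear scale. As log2 values, the medians of the arrays lay between 4.17 and 4.24. The spread given beside a difference is the SD of oeNC minus kdNC over the 500 genes nearest in level. Vector, culture and array all differ there, so it cannot stand for replicate error.

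**Figure D1:**
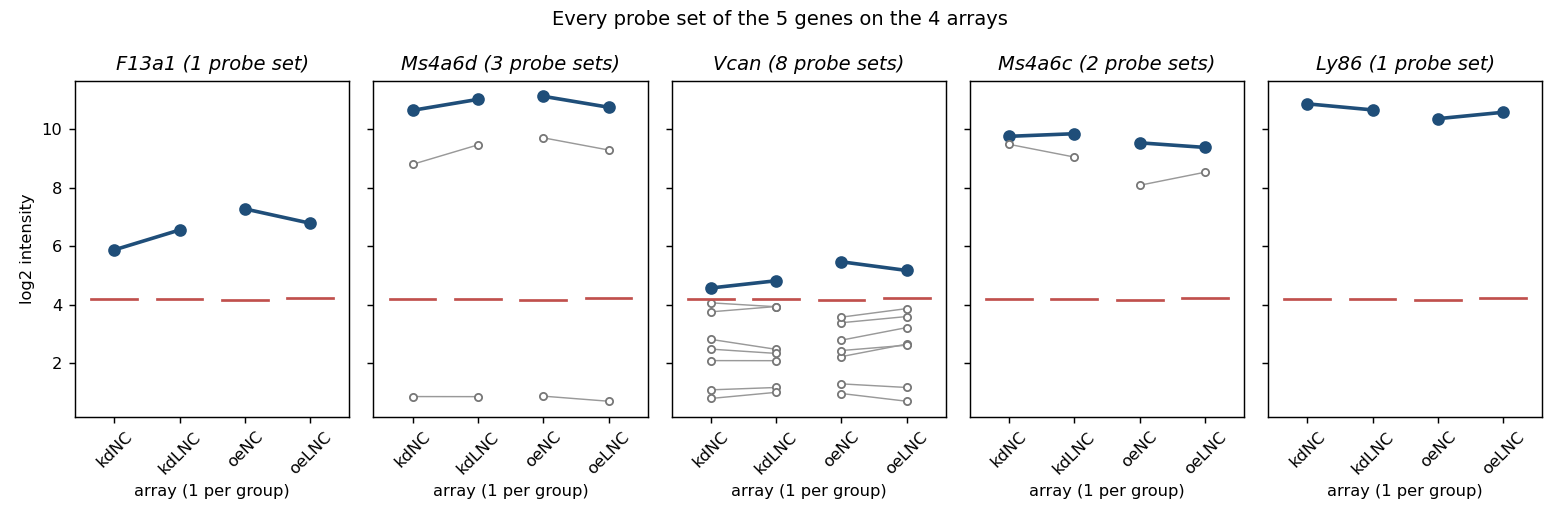
Log2 intensity (vertical axis) of every probe set of the 5 genes on the 4 arrays (horizontal axis). Filled points are the brightest probe set of a gene, open points its other probe sets, lines join the arrays of a pair and red bars are the array medians. F13a1 runs from 5.87 in kdNC to 7.27 in oeNC, and 7 of the 8 Vcan probe sets lie below the median of every array.

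F13a1 had a log2 intensity of 5.87 (kdNC), 6.55 (kdLNC), 7.27 (oeNC) and 6.78 (oeLNC). It was lowest in the control of the knockdown pair and highest in the control of the overexpression pair, with both lnc-C/EBPβ arrays between them. The array lowest in F13a1 also stood apart in the log2 ratio of the 3′ to the 5′ control probe sets of beta-actin, a sign of RNA quality, at 1.61 in kdNC and 1.96 to 1.97 on the others. For Gapdh that ratio was 0.51 (kdNC), 0.69 (kdLNC), 0.53 (oeNC) and 0.65 (oeLNC), and the part of RNA quality in these results was not tested. F13a1 was 1.60-fold higher in kdLNC than in kdNC, a log2 difference of 0.68 where the spread at that level was 0.56. In the overexpression pair it was 1.40-fold lower in oeLNC than in oeNC, by a difference of -0.49. The control arrays differed by more than either pair, with F13a1 2.64-fold higher in oeNC (1.40 on the log2 scale). With both controls averaged, kdLNC differed by -0.019 and oeLNC by 0.21, so the direction in both pairs rests on which control is used. Adding 16 to every intensity before the log2 lowered the knockdown difference to 0.56, under 1.5-fold.

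Since F13a1 is also a gene of platelets, 6 megakaryocyte and platelet markers were read beside it. Their mean log2 intensity was 5.61 (kdNC), 5.55 (kdLNC), 5.78 (oeNC) and 5.74 (oeLNC). Pf4, which encodes platelet factor 4, had values of 7.99, 8.77, 9.25 and 8.44 in the same order of arrays. It was thus ordered kdNC, oeLNC, kdLNC and oeNC from low to high, with differences of 0.78 on knockdown and -0.81 on overexpression. Itga2b, the platelet integrin, had differences of -0.34 and 0.43, and Ppbp, a platelet chemokine, of -0.54 and -0.33. Of the 6 markers, Pf4 alone passed 1.5-fold in either lncRNA pair, and the median was -0.25 on knockdown and 0.083 on overexpression. Their part in the F13a1 values was not tested.

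Ms4a6d had log2 intensities of 10.64 (kdNC), 11.02 (kdLNC), 11.12 (oeNC) and 10.75 (oeLNC) at its brightest probe set. The arrays kdNC and oeLNC were the low ones, and kdLNC and oeNC the high ones. Knockdown gave a difference of 0.37 and overexpression of -0.37, both inside the spread of 0.52. The name of this probe set ends in _s_at, which marks sets that can match several transcripts. A probe set without that ending had 8.80, 9.46, 9.70 and 9.29 in kdNC, kdLNC, oeNC and oeLNC, the same order of arrays with a wider range. There the differences were 0.66 on knockdown, 1.58-fold, and -0.42 on overexpression. The control arrays differed by 0.48 at the first and 0.91 at the second. The third probe set stayed between 0.70 and 0.88, far under the array medians, and carries no readable level.

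Vcan had log2 intensities of 4.57 (kdNC), 4.82 (kdLNC), 5.47 (oeNC) and 5.17 (oeLNC) at the brightest of its 8 probe sets. These values lay a little above the array medians in kdNC and kdLNC (4.20 and 4.18) and further above them in oeNC and oeLNC (4.17 and 4.24). They had the same order of arrays as F13a1. Knockdown gave a difference of 0.25 and overexpression of -0.30, inside the spread of 0.48, against 0.90 between the control arrays. The other 7 probe sets never rose above the median of an array and ran from 0.70 to 4.07. Their differences ran from -0.34 to 0.21 on knockdown and from -0.26 to 0.43 on overexpression. The next brightest was at 0.18 on knockdown, 0.29 on overexpression and -0.18 between the controls. The last 2 of these values were opposite in sign to those of the brightest probe set. Averaged over all 8, Vcan had differences of 0.012 on knockdown and 0.11 on overexpression, so the values given for it rest on 1 dim probe set. Against the mean of both controls the brightest probe set had -0.20 in kdLNC and 0.15 in oeLNC.

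Versican is also made by stromal cells, and 7 stromal markers had a mean log2 intensity of 4.27 (kdNC), 4.15 (kdLNC), 4.08 (oeNC) and 4.21 (oeLNC). Of these, 3 lay above the median of every array, and none differed by 1.5-fold in either lncRNA pair (medians -0.18 and 0.15). Of 16 genes that encode relatives, receptors or processing enzymes of versican, 4 lay above the median of all arrays. None differed by 1.5-fold on knockdown, while on overexpression 2 were higher and 1 was lower by as much (medians -0.066 and 0.24). The 2 higher ones, Bcan and Has3, lay below the median of every array. Tnfaip6, whose product modifies hyaluronan, was at -0.28 on knockdown and -1.27 on overexpression, and 2.13 between the controls, and exceeded an array median only in oeNC. Cd44, the hyaluronan receptor, was at 0.055 and -0.048. The part of stromal cells in the Vcan values was not tested.

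Ms4a6c had 2 probe sets above the medians of all arrays, and they disagreed. At the brighter one the log2 intensities were 9.75 (kdNC), 9.84 (kdLNC), 9.53 (oeNC) and 9.37 (oeLNC). This is nearly flat, 0.089 for knockdown and -0.16 for overexpression, with -0.22 between the controls. At the other they were 9.48 (kdNC), 9.05 (kdLNC), 8.08 (oeNC) and 8.53 (oeLNC). There knockdown gave -0.44 and overexpression 0.45, and the controls differed by -1.40. All 3 differences of the second lay further from 0 than those of the first, and the signs in the lncRNA pairs were opposite. With the mean of both probe sets Ms4a6c had -0.17 on knockdown and 0.14 on overexpression, so it is given no direction here. In RefSeq the noncoding gene BE692007 overlaps Ms4a6c, and which of the probe sets lies where was not analysed here.

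Ly86 had log2 intensities of 10.86 (kdNC), 10.66 (kdLNC), 10.36 (oeNC) and 10.58 (oeLNC). It was highest in kdNC and lowest in oeNC, the reverse of F13a1, with both lnc-C/EBPβ arrays between. Knockdown gave a difference of -0.21 and overexpression of 0.22, with -0.51 between the controls, all inside the spread of 0.53. Against the mean of both controls these became 0.046 in kdLNC and -0.035 in oeLNC. Cd180, which encodes the receptor partner of MD-1, had 7.35 (kdNC), 7.02 (kdLNC), 5.85 (oeNC) and 6.94 (oeLNC). It had the same order of arrays with larger steps, at -0.33 on knockdown, 1.08 on overexpression and -1.50 between the controls. Tlr4, with its partner gene Ly96, encodes the related receptor for lipopolysaccharide. Tlr4 was at 0.0020 and 0.22 and Ly96 at 0.20 and -0.055. Of 7 genes of this receptor group, none differed by 1.5-fold on knockdown and 1, Cd180, on overexpression. The medians were -0.21 on knockdown, or 0.075 with both controls averaged, and 0.15 on overexpression.

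B cells express both Ly86 and Cd180, and the B cell markers moved between the cultures. The mean log2 intensity of 6 such markers was 7.99 (kdNC), 7.92 (kdLNC), 6.90 (oeNC) and 6.81 (oeLNC), and all 6 lay above the median of every array. Of these, 4 were at least 2-fold lower in oeNC than in kdNC, with a median of -1.18. On knockdown the median was -0.010, and 0.011 after median centring, with no gene past 1.5-fold. On overexpression it was -0.12, with Pax5, a B cell transcription factor, at 0.81, Ebf1, another, at -0.66 and Vpreb1, of the surrogate light chain, at -0.62. Pax5 was dim in oeNC, at 4.30 where the array median was 4.17. Pax5 has 2 probe sets and Ebf1 has 5, and only the brightest of each is given. With both controls averaged the medians of the 6 markers were 0.51 in kdLNC and -0.67 in oeLNC. The part of B cells in the Ly86 values was not tested. In mixed cultures measured in bulk, fewer cells of a type and less RNA per cell cannot be told apart.

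**Figure D2:**
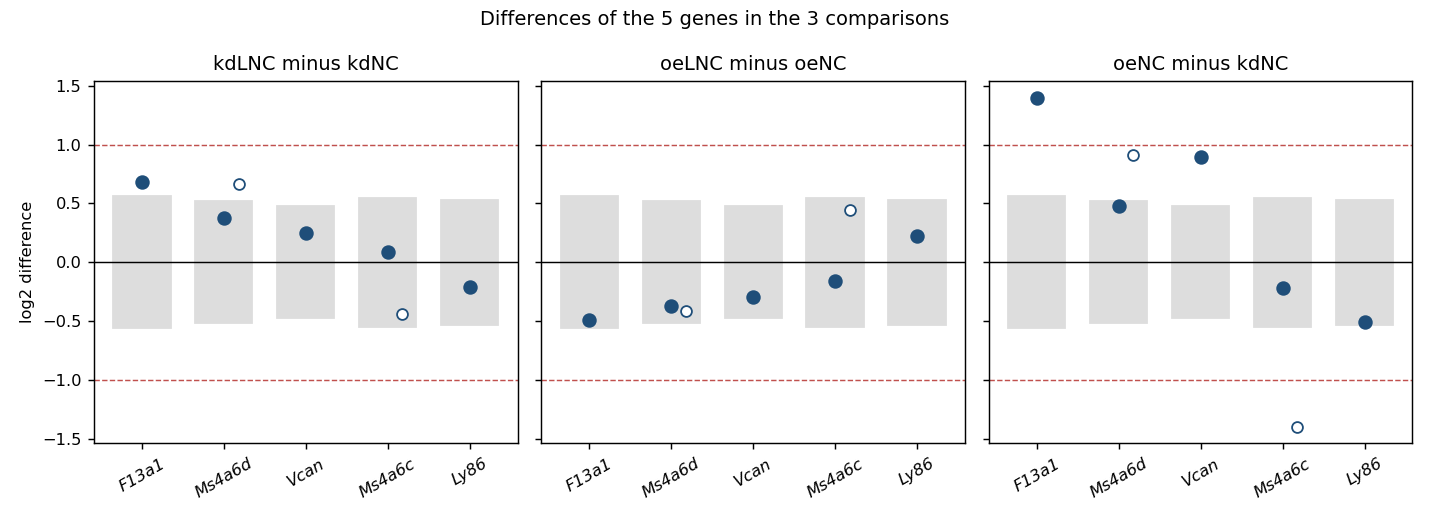
Log2 difference (vertical axis) of each gene on knockdown, on overexpression and between the control arrays. Filled points are the brightest probe set, open points other probe sets above an array median, grey boxes reach 1 SD (of the control difference among genes of like level) to either side of 0, and dashed lines mark 2-fold. F13a1 at 0.68 is outside its box on knockdown, all filled points are inside on overexpression, and F13a1 at 1.40 and Vcan at 0.90 are outside between the controls.

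Set against all genes, the 5 stood out little in the lncRNA pairs. All 5 passed the filter, which asked for a value above the array median in either culture compared. On knockdown 0 of 5 were at least 2-fold different, where 0.834% of 11505 genes were, and 1 of 5 was at least 1.5-fold different, where 4.33% were. On overexpression 0 of 5 passed 2-fold (1.10% of 11869 genes) and 0 of 5 passed 1.5-fold (9.32%). Between the control arrays 1 of 5 passed 2-fold (7.03% of 11723 genes), which was F13a1, and 2 of 5 passed 1.5-fold (21.4%), F13a1 and Vcan. Counted by probe set at 1.5-fold, 2 of the 7 above the filter were called on knockdown (5.26% of all probe sets), none on overexpression (11.1%) and 4 between the controls (24.7%). The median difference of the 5 genes was 0.25 on knockdown, -0.30 on overexpression and 0.48 between the controls. Over all genes above the filter the medians were -0.048, -0.014 and -0.036. Against the mean of both controls the median of the 5 was 0.046 in kdLNC and -0.035 in oeLNC.

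The knockdown and overexpression pairs share no array. At the brightest probe sets all 5 genes had opposite signs in them, with Ly86 lower on knockdown and the other 4 higher. Over the 11282 genes that passed the filter for each pair, 53.8% had opposite signs. These signs held after median centring, quantile normalization and loess within each pair. They did not hold against the mean of both controls, where only Ms4a6c and Ms4a6d kept theirs in both pairs, nor for Ms4a6c and Vcan when probe sets were averaged.

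Other genes of monocytes were read beside the 5 as a check of the cultures. Of these, 16 genes were measured, and all 16 lay above the median of every array. Csf1r, the receptor for the monocyte growth factor M-CSF, had log2 intensities of 11.61 (kdNC), 11.43 (kdLNC), 11.77 (oeNC) and 11.87 (oeLNC). That is -0.18 on knockdown, with its other probe sets at -0.11 and -0.21. Overexpression gave 0.11, while the other probe sets of Csf1r were at -0.18 and -0.55. Ly6c1 and Ly6c2, which encode the surface antigen Ly6C, were not analysed here. On knockdown 1 of the 16 was at least 1.5-fold higher, the interferon-inducible Ifi204, and none was lower. The values of Ifi204 were 8.45 (kdNC), 9.24 (kdLNC), 9.34 (oeNC) and 8.58 (oeLNC), so kdNC and oeLNC were low and kdLNC and oeNC high, as for Ms4a6d. On overexpression 1 was higher, Ccr2 (0.78), a chemokine receptor of monocytes, and 3 were lower. These were the nuclear receptor gene Nr4a1 (-0.84), Ifi204 (-0.76) and Irf8 (-0.59). Another probe set of Irf8 was at -0.032. Ccr2 was dim, at 4.19 in oeNC where the array median was 4.17. The other probe sets of Ccr2 ran from 0.061 to 0.77, with values below the array medians in oeNC and oeLNC. The median of the 16 was -0.044 on knockdown and -0.039 on overexpression, where quantile normalization turned it to 0.038, and 0.17 between the controls.

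In the Ms4a cluster, Ms4a6c and Ms4a6d lie among genes expressed in other cell types, and some of these differed widely between the controls. Ms4a1, which encodes the B cell protein CD20, was at -2.09 between the controls (0.14 on knockdown, and 0.90 at its other probe set), and Ms4a2, which encodes a subunit of the mast cell and basophil IgE receptor, at -2.32 (-0.69 at its other probe set). Ms4a4b, next to Ms4a6c and known from T cells, was at -1.08. The close relative Ms4a6b, between Ms4a6c and Ms4a6d, had 10.82 (kdNC), 10.86 (kdLNC), 10.95 (oeNC) and 10.80 (oeLNC). Ms4a6b was thus nearly level, at 0.040 on knockdown and -0.15 on overexpression. Gm8369, the measured neighbour of Ms4a6c on its other side, was at 0.31 and -0.060. Of 13 measured members of the family other than the 5 genes, 1 was at least 1.5-fold lower on knockdown. That was Ms4a3, a gene of granulocyte and monocyte progenitors, at -0.62. On overexpression 1 was higher, Ms4a2 at 0.63 but -0.075 at its other probe set, and 1 was lower, Ms4a8a at -0.62. The median of the 13 was 0.040 on knockdown and 0.11 on overexpression, and -0.16 there against the mean of both controls.

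**Figure D3:**
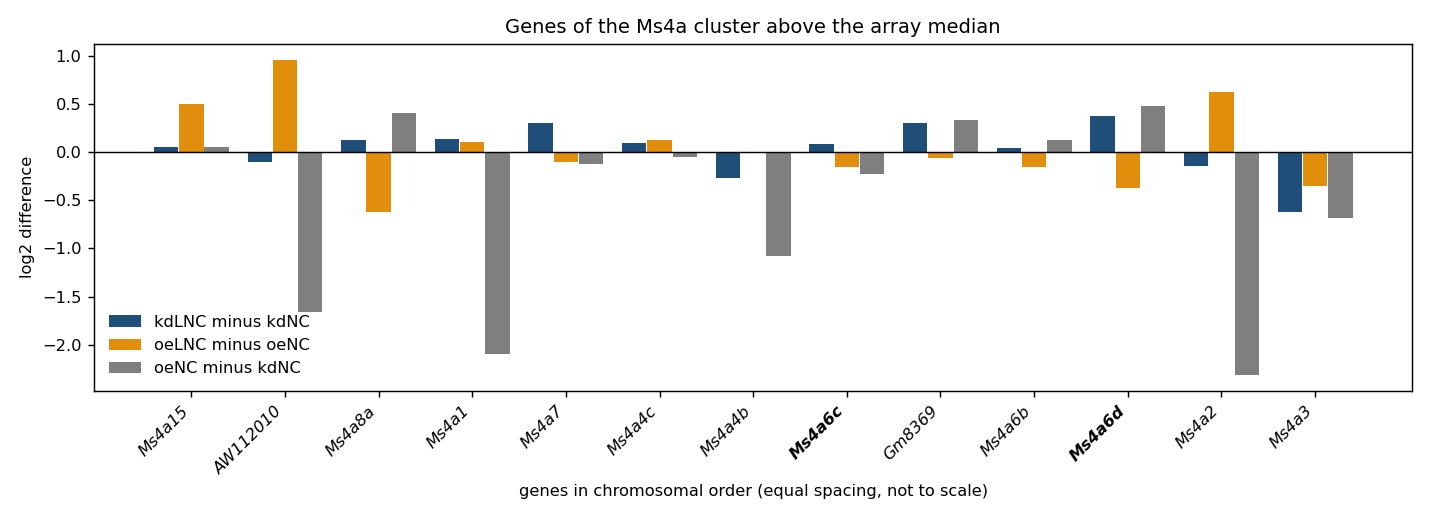
Log2 difference (vertical axis) of genes of the Ms4a cluster that lay above an array median, in chromosomal order (horizontal axis, not to scale), with Ms4a6c and Ms4a6d in bold. Bars start at 0, with a colour each for knockdown, overexpression and the control difference. Ms4a1 at -2.09 and Ms4a2 at -2.32 have the longest bars between the controls, where Ms4a6d is at 0.48.

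Along chromosome 13, the nearest genes with a probe set were read beside the 5. Nrn1, on the side of F13a1 away from Ly86, was at -0.14 on knockdown and -0.084 on overexpression. Rreb1, beyond Ly86, was at 0.16 and -0.50, with the signs of F13a1 and not those of Ly86. Beside Vcan, Hapln1, which encodes a link protein of hyaluronan and versican, was at 0.10 and 0.22 with values below the array medians.

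Markers of other cells of such cultures gave the following. Of 10 genes of mature neutrophils, 6 lay lower by at least 1.5-fold on knockdown. The lowest were Ltf (-2.70) and Camp (-1.50). The other 4, S100a8, S100a9, Lcn2 and Mmp8, were nearly level, from 0.047 to 0.12. S100a8, S100a9 and Lcn2 lay between 13.17 and 13.49 on every array, near the top of the scale, where a difference may not show. Whether that narrowed their differences was not tested. The median of the 10 was -0.90 on knockdown and -0.083 on overexpression. Over 5 eosinophil genes the median was -0.88 on knockdown and -0.91 between the controls, and -0.27 in kdLNC with both controls averaged. On overexpression it was 0.044, and -0.025 after median centring and -0.55 with both controls averaged. Mast cell and basophil genes had -0.063 on knockdown, 0.23 on overexpression and -1.12 between the controls, and with both controls averaged the first pair of values turned to 0.20 and -0.34. Of 10 macrophage genes, 1 was at least 1.5-fold higher on knockdown and 2 were lower on overexpression. Mrc1, the macrophage mannose receptor, had 3.14 (kdNC), 4.13 (kdLNC), 4.94 (oeNC) and 4.23 (oeLNC), and was above the array median only in oeNC. The macrophage median was 0.077 on knockdown and -0.28 on overexpression, and -0.12 and -0.069 with both controls averaged. Dendritic cell genes had 0.034 and -0.086, or 0.24 and -0.23 with both controls averaged. Of 11 measured genes of the transglutaminase family, fibrinogen and the B subunit of factor XIII (F13b), 4 lay above the median of every array. None of the 11 passed 1.5-fold on knockdown and 2 were higher by as much on overexpression. These were F13b, below every array median, and Tgm5, above an array median only in oeLNC. The medians of the 11 were -0.19 and 0.076, the latter -0.011 after quantile normalization and -0.030 after loess. Tgm2, tissue transglutaminase, was at -0.11 and 0.10. Il4i1, the gene the study followed up, was at -0.59 and 0.25 and below the median of every array. The paper reports Il4i1 as higher on knockdown, from a microarray linked to another series and from qRT-PCR and immunoblot. Whether any of these genes and lists moved with the 5 genes for a shared reason was not tested.

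**Figure D4:**
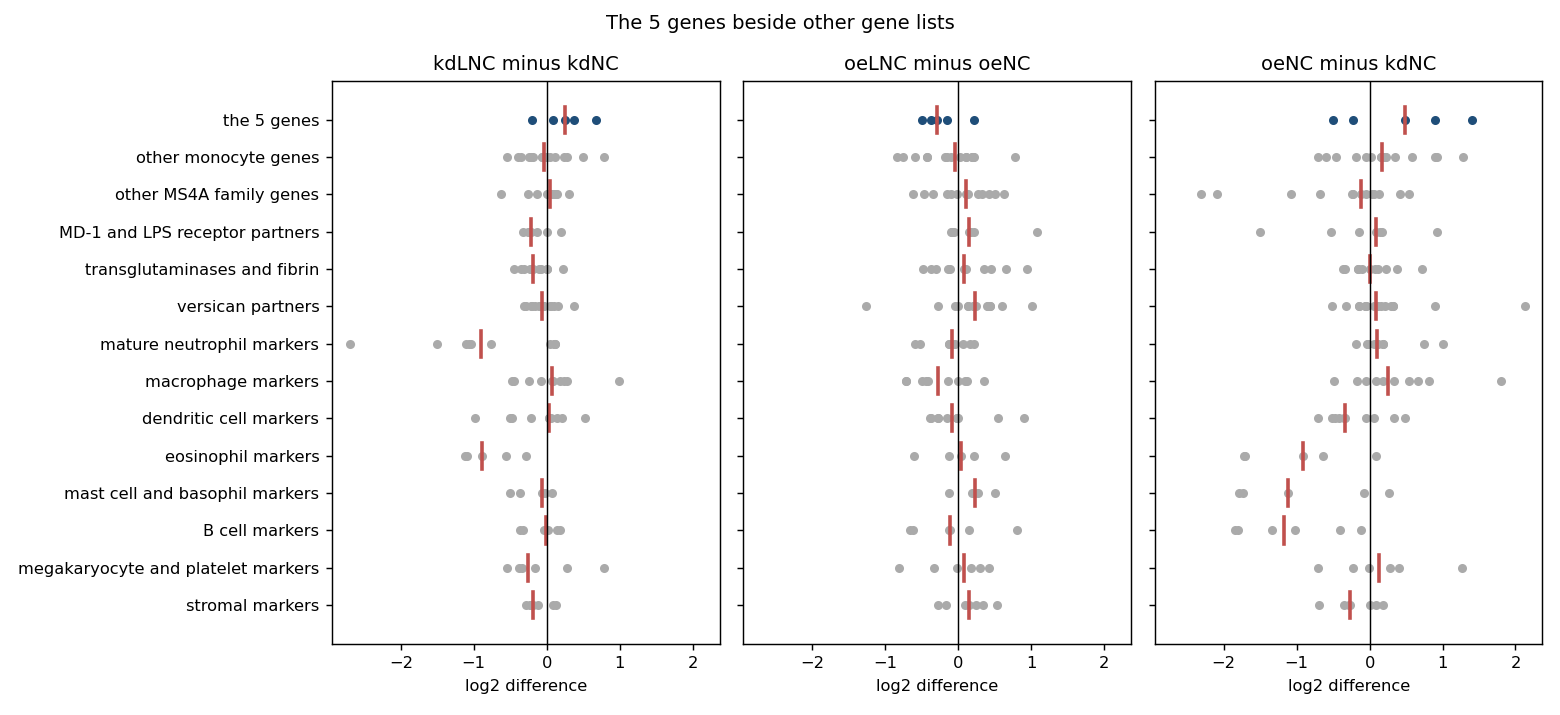
Log2 difference (horizontal axis) of each measured gene (points) of the 5 genes (blue) and of 13 gene lists (grey), with the median of each list as a red bar, in the 3 comparisons. The median of the 5 genes is 0.25 on knockdown, -0.30 on overexpression and 0.48 between the controls, and the B cell markers lie at -1.18 between the controls.

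Genes with the profile most like that of F13a1 and Vcan were sought over the 4 arrays, since only these varied by at least 1.5-fold at their brightest probe set. The measure was the distance between log2 values after subtraction of each gene's mean, over 12092 genes above a median. Nearest to F13a1 were Wac (distance 0.098), Mob3b (0.12) and Socs3 (0.13). Socs3, which encodes a feedback inhibitor of IL-6 and STAT3 signaling, had 10.53 (kdNC), 11.28 (kdLNC), 12.11 (oeNC) and 11.51 (oeLNC). Vcan was the 63rd nearest, at 0.39. Nearest to Vcan were Arl14ep (0.020), Rffl (0.038) and Atraid (0.053). Ranked by correlation, Socs3 was the only one of the 6 genes still among the first 3. With 4 points per gene the likeness is a description of these arrays.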

How the data were processed

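RNA from 4 cultures, 1 per group (kdNC, kdLNC, oeNC and oeLNC), was measured on Affymetrix mouse arrays. The authors deposited normalized intensity values on a linear scale for 45101 probe sets, for which the submitters' notes name RMA without version or settings, so how background was handled is not given in the sources used here. No background estimate was used here. Precision is limited by the number of arrays.

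Log2 was taken and 3 differences were formed (kdLNC minus kdNC, oeLNC minus oeNC, oeNC minus kdNC). In GEO's platform annotation 34958 probe sets carry 1 gene symbol and were used, while 932 with several symbols and 9211 without a symbol were left out. The methods name limma. It needs replicates, which 1 array per group does not give, so nothing was tested, and called means a difference of at least 2-fold or, where stated, 1.5-fold, among genes above the 50th percentile on at least 1 array of the pair. The methods of calculation were tested on simulated data. Python 3.11.15, numpy 2.4.6, pandas 2.3.3, statsmodels 0.14.6 and matplotlib 3.10.9 were used.

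The 5 genes, the 13 lists and the rules were chosen with earlier results of these data known. The genes named are the 5, up to 4 of each list with the largest differences, those nearest in profile (3 each) or position, and Il4i1. Csf1r, Ly96, Cd44, Tgm2, Ms4a1, Ms4a6b, S100a8, S100a9, Lcn2, Mmp8, BE692007, Ly6c1 and Ly6c2 were named outside that rule, after their values were seen. Alternatives were median centring, quantile normalization, loess (span 0.3), the mean of all probe sets, exclusion of probe sets ending in _s_at or _x_at, a pseudocount of 16, the mean of both controls, no filter or the 70th percentile, and thresholds of 1.5 and 3.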

Additional observations from a re-analysis of the deposited data

How the results depend on the processing

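No paired analysis was possible because the groups hold a single array apiece, which also prevented leaving arrays out. An alternative was counted as leaving a gene's difference the same when it moved by less than the spread between the control arrays at that level, and a list's median when it moved by less than that spread over all genes divided by the square root of the number of genes. That first yardstick is wide, so signs were counted too. A difference could count as reversed only if it was at least 1.5-fold as deposited. Some alternatives repeat the deposited value by construction. Both probe set alternatives do so for F13a1 and Ly86, which have 1 probe set each. Exclusion of probe sets ending in _s_at or _x_at does so for Ms4a6c and Vcan. Of 100 alternative values of the 5 genes, 96 were the same, 3 moved and 1 was reversed, and the sign changed in 9, of which 6 used the averaged controls. That control turned F13a1 on knockdown to -0.019 and moved it on overexpression to 0.21. By construction it shifts both pairs by the same amount in opposite directions. With the mean of all probe sets the control difference moved to -0.81 for Ms4a6c and 0.059 for Vcan, where the probe sets of each gene differ. Thresholds changed the counts by construction, with 1 gene called on knockdown and 2 between the controls at 1.5-fold, and 0 between the controls at 3-fold. Without the filter no count changed, nor at the 70th percentile, where Vcan dropped out. Of 154 list medians, 142 were the same and 12 moved, all 12 with the mean of both controls, and 14 changed sign. Background was not estimated, which limits Vcan most, as its values lie nearest to the array medians.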
